A study of Arabidopsis thaliana with 21 samples.

Results

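Wild-type Arabidopsis thaliana seedlings (ecotype Col-0) that spent 18 h in continuous red light were compared with seedlings that spent the same 18 h in darkness. The comparison uses the 3 WT_R18 arrays and the 3 WT_D18 arrays, 6 of the 21 arrays in the series. It covers all 22746 probe sets that are not controls, of 22810 on the array. Seeds on medium without sucrose were kept in the cold dark for 4 days at 4 °C. White light for 3 h then started germination, and seedlings grew in darkness at 21 °C for 4 days. WT_R18 seedlings were next moved to red light for 18 h and WT_D18 seedlings stayed in darkness for 18 h more. WT_D0, used here as the starting point, was collected at the end of the 4 days. The other arrays hold wild type after 1 h more of darkness or 1 h of red light, and the pif3 mutant in darkness, and were used only for the estimate of spread and for normalization. Each group has 3 replicates that the labels call biological. Each sample was RNA of whole seedlings, so root, hypocotyl and cotyledon are mixed, and fewer cells of a type cannot be told apart from less RNA per cell.

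A seedling grown in the dark lengthens its hypocotyl, keeps its cotyledons folded and holds its plastids as etioplasts, which lack chlorophyll. It lives on the oil and protein stored in the seed. Red light converts phytochrome to its active form, which enters the nucleus and leads to the breakdown of the PIF transcription factors that maintain the dark programme. In de-etiolation, as this change is called, elongation slows, chloroplasts form and photosynthesis begins.

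Red light changed a large share of the transcriptome within this time, and increases were fewer but larger than decreases. Values are intensities on a linear scale, quantile normalized between arrays, and a log2 change was taken after an offset of 16 was added. A probe set was called when limma's p-value, adjusted over all 22746 by the Benjamini-Hochberg method, was under 0.05. Called were 34.4% of the probe sets, with 14.1% higher and 20.3% lower in red light. The median log2 change was 0.79 among the 3213 probe sets called higher and -0.53 among the 4615 called lower. Past 4-fold, 372 were higher and 79 lower, whereas among called changes of less than 0.5 on the log2 scale 782 were higher and 2079 lower. The red and dark arrays did not overlap for 10916 probe sets, which is 48% of all. Changes of at least 2-fold were called higher for 5.34% of the probe sets and lower for 2.62%. The deposited values, left unscaled, gave 1997 calls, 75.8% of which were increases, against 41.0% with scaling.

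**Figure D1:**
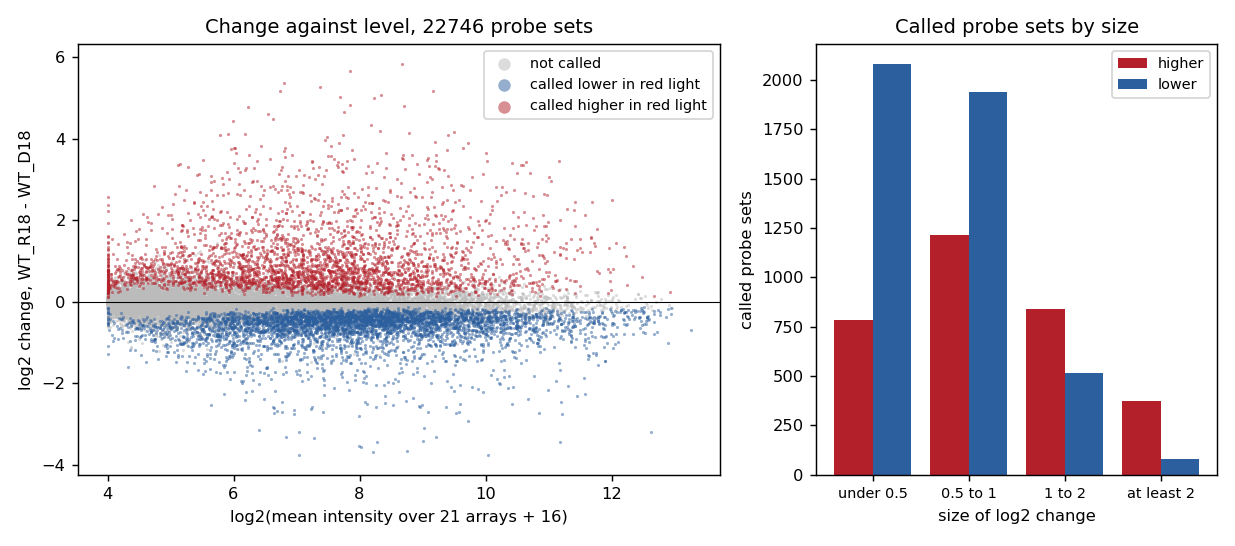
The left panel plots the log2 change (WT_R18 minus WT_D18) against the mean level over the 21 arrays, with 1 point per probe set, and the right panel counts the called probe sets by the size of the change. Decreases outnumber increases among the small changes (2079 against 782 under 0.5), and increases outnumber decreases among the large ones (372 against 79 from 2 upwards).

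The share and the direction of the calls moved with brightness. Among probe sets with a mean under 50 intensity units, 14.0% were called, and 57.0% of those calls were increases. Between 200 and 1000 units 54.1% were called, 34.9% of them higher. Above 1000 units 63.2% were called, and 26.2% of these calls were increases. Increases were the majority among dim probe sets and decreases among bright ones. Brightness here was the mean over all arrays of the series, most of which are not WT_R18. A probe set that changed in red light was therefore binned mainly by its level in the other groups. HYH, for example, had a mean of 218.4 units in WT_R18 but of 48.55 over all arrays. How far this binning shaped the trend in direction was not tested.

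Another 18 h of darkness gave few calls. Between WT_D18 and WT_D0, 10 probe sets were called, 0.044% of those tested. In limma 3019 had an unadjusted p under 0.05, more than that threshold would pass if nothing changed. Smaller changes may therefore have gone uncalled. The interquartile range of the log2 changes ran from -0.13 to 0.13 there, against -0.30 to 0.18 for red light against darkness at 18 h. WT_R18 against WT_D0 gave 7378 calls (32.4%), 3046 higher and 4332 lower. These comparisons share arrays, so each is given by its own values only. Of the 10 probe sets called in darkness, 4 have a gene name here: AT2G02880, AT3G56480, AT1G42960 and NRPB9A, a subunit of RNA polymerase II, all lower after the longer darkness. NRPB9A was at 21.99, 29.05 and 42.06 units in WT_D0 and at 7.766, 8.305 and 9.464 in WT_D18. Its mean of 14.03 in WT_R18 was not called different from WT_D18 (log2 change 0.29, adjusted p = 0.15).

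Log2 values correlated across probe sets at 0.984 to 0.990 between WT_R18 arrays, at 0.987 to 0.992 between WT_D18 arrays and at 0.933 to 0.951 between the groups, so that the red arrays stood apart from the dark ones. WT_D18 and WT_D0 arrays correlated at 0.975 to 0.990, and WT_D0 arrays with each other at 0.981 to 0.985. The deposited medians ran from 68.96 to 75.13 in WT_R18, from 55.71 to 73.18 in WT_D18 and from 40.95 to 102.9 in WT_D0. The 25S rRNA control stood apart in WT_D18 replicate 1, at 365.2 units, against 2043 to 4305 in the other WT_D18 arrays and 2650 to 3423 in WT_R18. Without that array 6963 probe sets were called, 2949 higher and 4014 lower. The ratio of 3' to 5' signal of the GAPDH control, a sign of RNA integrity, was 1.33 to 1.39 in red light and at least 1.44 in darkness, so the groups did not overlap. Its part in the results was not tested.

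Of the probe sets, 13513 could be paired with 1 gene, which gave 13356 genes, each read from its brightest probe set. Of these genes 31.6% were called, 12.4% higher and 19.2% lower, and the groups did not overlap for 45.3%. The median log2 change over the genes was -0.041. Gene counts in the following paragraphs are read against these shares. The shares mix dim and bright genes, whereas above 1000 units 63.2% of probe sets were called and 26.2% of those calls were increases. Lists and families were not compared with genes of like brightness, so many decreases among bright members do not set a family apart. The lists and families were also chosen with earlier results of these data known, so their counts are descriptions.

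Genes were ranked only if called, with red and dark arrays that did not overlap and with means of at least 50 units in both groups. Among these genes the largest increases reached 43.4-fold. AT5G48490 was at 64.28, 66.82 and 94.10 units in the 3 dark arrays and at 3341, 2736 and 3698 in the 3 red ones. Its 3 WT_D0 values ran from 37.67 to 81.16. The log2 change was 5.17 (SE 0.21, adjusted p = 1.6e-10), and the annotation used here gives the gene only a locus name. AT1G21500, likewise without another name, was at 71.24, 37.87 and 89.69 units in darkness and at 2252, 2039 and 2309 in red light, a 33.2-fold rise of the mean.

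CaS, the calcium sensing receptor of the thylakoid membrane, was at 184.3, 86.82 and 155.8 units in darkness and at 1792, 1498 and 2285 in red light. Its mean rose 13.1-fold, and the WT_D0 mean of 145.1 was close to the WT_D18 mean of 142.3. AT3G21670, which the annotation also lists as NPF6.4 of the nitrate and peptide transporter family, was at 67.93, 57.81 and 41.77 units in darkness and rose to 750.8, 623.2 and 881.1. The other 8 of the 12 largest increases carry only locus names: AT2G42220 rose by 3.91 on the log2 scale, AT3G05730 by 3.73, AT5G35970 by 3.65, AT1G44000 by 3.60, AT1G14345 by 3.53, AT2G34460 by 3.49, AT1G18060 by 3.44 and AT4G27700 by 3.40. Among them AT5G35970 had the smallest error (SE 0.11), with 94.51, 105.8 and 111.4 units in darkness and 1536, 1177 and 1807 in red light. AT3G05730 had a WT_D0 mean of 299.8 units: WT_D0 arrays held 111.5, 407.8 and 380.1 units, WT_D18 arrays 122.2, 91.21 and 131.6, and WT_R18 arrays 1549, 1382 and 2338. Its change from WT_D0 to WT_D18 was -1.10 (adjusted p = 0.28).

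The largest decrease among the ranked genes was that of PAP85, a vicilin-like seed storage protein. PAP85 was at 2143, 1495 and 2089 units in darkness and at 140.3, 72.79 and 187.0 in red light, a 14.3-fold fall of the mean. It had stood at 1377, 823.6 and 1479 units in WT_D0, and the rise of 0.66 from there to WT_D18 was not called (adjusted p = 0.36). OLEO3, an oleosin of the seed oil body, fell from 540.7, 461.5 and 527.3 units to 87.78, 63.88 and 74.24. M17, a late embryogenesis abundant protein, fell from 333.6, 339.3 and 631.6 units to 65.37, 64.11 and 57.91. All 3 of these genes are known from maturing seeds.

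Of the other large decreases, GH9B13, a glycosyl hydrolase of the family that holds the plant endoglucanases, was at 826.8, 664.2 and 740.3 units in darkness and at 118.2, 108.6 and 123.2 in red light, 6.38-fold lower. SIS, a serine-rich protein named for its induction by salt, fell from 2597, 2848 and 2787 units to 580.4, 408.6 and 486.6. AT1G73120 was at 3038, 2784 and 3135 units in darkness and 608.0, 431.7 and 789.8 in red light. The other 6 carry only locus names: AT5G02580 fell by 3.42 on the log2 scale, AT3G01570 by 3.31, AT5G66590 by 2.70, AT4G35720 by 2.69, AT5G01670 by 2.52 and AT4G01410 by 2.48. All 24 of these genes kept call and direction in each of the 16 other settings tried, with adjusted p up to 0.033 (AT4G01410). They were picked for large changes without overlap in the same arrays, so this follows in part from the choice.

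**Figure D2:**
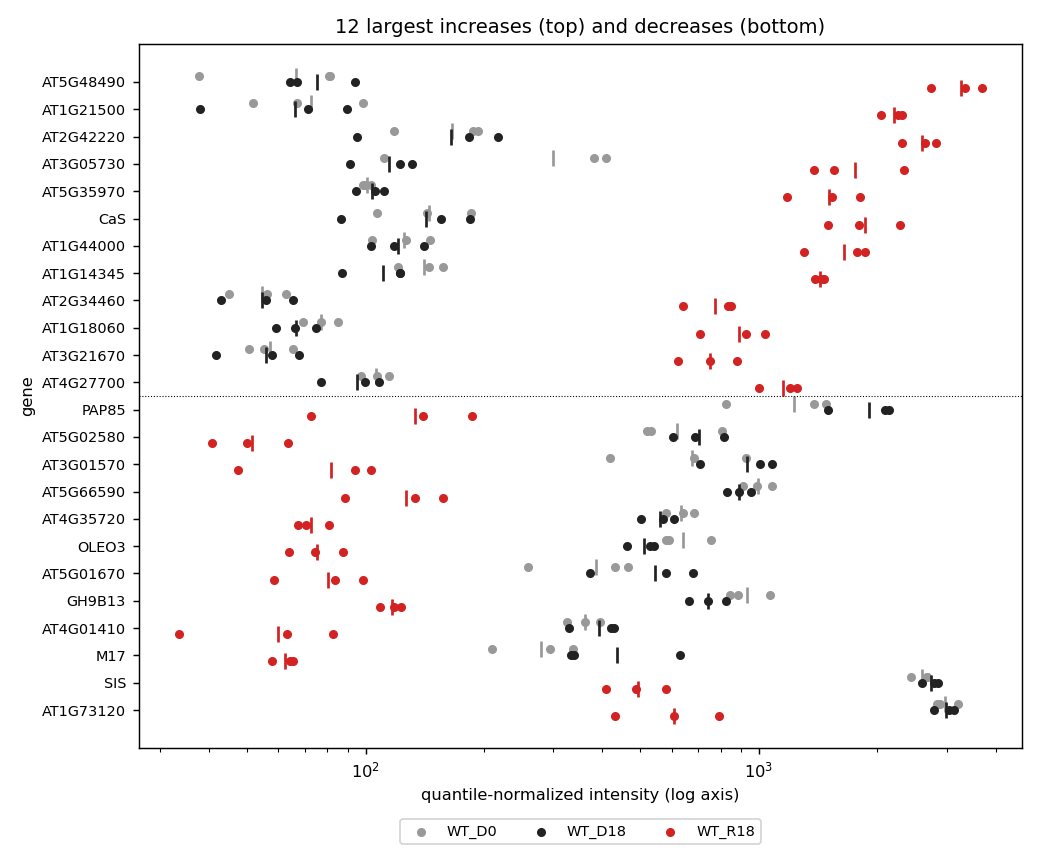
Quantile-normalized intensities on a log axis are plotted for the 12 largest increases (upper block) and the 12 largest decreases (lower block), with 1 dot per array and a tick at each group mean, for WT_D0 (grey), WT_D18 (black) and WT_R18 (red). Only genes whose red and dark arrays do not overlap could enter, so in every row the red dots lie apart from the black ones. Examples are AT5G48490 (2736 and above against 94.10 and below) and AT1G73120 (789.8 and below against 2784 and above).

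Nuclear genes of the photosynthetic apparatus were higher in red light. All 6 measured subunits of the photosystems and the chloroplast ATP synthase were called higher, with a median log2 change of 1.75. PSAE-1, a stromal subunit of photosystem I, was at 1626, 1189 and 1649 units in darkness and at 5999, 5826 and 5999 in red light. PSAN, a lumenal subunit of photosystem I, was at 1038, 839.0 and 978.5 units and rose to 4648, 3798 and 4776. Of the photosystem II proteins, PSBY was at 1519, 1054 and 1246 units in darkness and 5071, 4438 and 5215 in red light. PSAN rose by 2.19 and PSBY by 1.95 on the log2 scale. PSBW, also of photosystem II, went from 1910, 1621 and 2016 units to 4615, 4386 and 4902, and PSB27, a photosystem II repair and assembly protein, from 1805, 1263 and 1713 to 3734, 3516 and 3829. ATPC1, the gamma subunit of the ATP synthase, was at 1483, 1338 and 1511 units in darkness and 4245, 3955 and 4648 in red light. The same 6 were called with the arrays unscaled.

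The 3 measured antenna genes encode isoforms of the minor antenna protein CP29, and all were called higher. LHCB4.1 was at 3596, 3390 and 3810 units in darkness and at 8289, 7312 and 7870 in red light. LHCB4.2 was at 2380, 1988 and 2370 units and rose to 5712, 5410 and 5879. LHCB4.3 was at 171.6, 191.5 and 169.6 units, and rose to 537.9, 496.1 and 602.3.

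Carbon fixation genes rose with them. All 3 measured Calvin cycle genes were called, with a median of 2.27. SBPASE, sedoheptulose-bisphosphatase, was at 585.7, 293.4 and 483.2 units in darkness and at 3185, 2784 and 3666 in red light, a 7.07-fold rise. RCA, Rubisco activase, was at 1573, 1113 and 1444 units and rose to 6488, 6747 and 6620. PRK, phosphoribulokinase, rose less, from 2242, 1464 and 1944 units to 4507, 3743 and 4855 (log2 change 1.22, SE 0.18). HPR, the peroxisomal hydroxypyruvate reductase of photorespiration, rose from 1354, 1175 and 1420 units to 4076, 3656 and 4708. In starch metabolism SBE2.2, a branching enzyme, rose by 1.44, while DPE1, a disproportionating enzyme of starch breakdown, fell by 0.50 and lost its call with the arrays unscaled (adjusted p = 0.55).

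In tetrapyrrole synthesis, the path to chlorophyll and heme, 6 of 8 measured genes were higher, with a median of 1.25. They run along the pathway: GSA1 and HEMB1 make its early precursors and rose by 0.70 and 1.25, HEME1 and HEME2 (uroporphyrinogen decarboxylases) by 2.35 and 2.13, and the chlorophyll branch genes CHLI2 (a magnesium chelatase subunit) by 2.40 and CHLM (a methyltransferase) by 1.26. CHLI2 was at 88.36, 73.37 and 104.1 units in darkness and at 539.7, 478.4 and 577.6 in red light. The members not called were HEMA2, a glutamyl-tRNA reductase, and PORB, a light-dependent protochlorophyllide reductase. PORB was at 2686, 1798 and 2626 units in darkness and at 1816, 1814 and 1890 in red light, where the groups overlapped (log2 change -0.34, SE 0.20, adjusted p = 0.22). HEMA2 had a log2 change of -0.23 (adjusted p = 0.11), and with unscaled arrays GSA1 was not called (adjusted p = 0.29).

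Of 5 photoprotection and chloroplast redox genes, 3 were higher. TAPX, the thylakoid ascorbate peroxidase, was at 160.0, 92.44 and 137.1 units in darkness and at 728.8, 494.0 and 852.6 in red light. NTRC, a thioredoxin reductase of the chloroplast stroma, rose from 183.1, 172.6 and 182.6 units to 892.8, 754.4 and 985.1. LIL3:1, a light-harvesting-like protein, rose by 1.68. Its paralogue LIL3:2, at 2399, 1803 and 2209 units in darkness and 2095, 1906 and 2151 in red light, had a log2 change of -0.05 (SE 0.14, adjusted p = 0.86), and SAPX, the stromal ascorbate peroxidase, had one of 0.32 (adjusted p = 0.072). LYC, the lycopene cyclase of carotenoid synthesis, was the only measured gene of that pathway and rose by 0.89.

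The plastid genome itself encodes core subunits of the same complexes. Whether the labelling captured plastid, mitochondrial and nuclear RNA alike was not tested, so a plastid or mitochondrial gene that was not called is not shown to be unchanged. Of 69 plastid-encoded genes with a value, 13 were called, 10 higher and 3 lower, and the median over them was -0.038. That is 18.8% called, against 31.6% of all genes. For the 33 plastid genes of photosynthesis proteins the share was 30.3%. Of 15 photosystem II genes 8 were higher, with a median of 0.50. psbA, for the D1 reaction centre protein, was at 2258, 1518 and 1098 units in darkness and at 3861, 3155 and 3384 in red light (log2 change 1.14, SE 0.19, adjusted p = 0.00019). psbD, for the D2 protein, was at 357.7, 236.7 and 254.9 units and rose to 866.0, 442.5 and 736.6, and psbC, for an inner antenna protein, rose by 1.05. psbZ rose by 0.76. These 4 kept their call with any 1 array left out. Each of psbB, psbE, psbH and psbT lost it in 2 to 5 of the 6 such fits (highest adjusted p 0.17 for psbE, 0.13 for psbB). The count of called genes for photosynthesis proteins, 8 higher and 2 lower of 33, moved between 4 higher (without WT_R18 replicate 1) and 10 higher (without WT_R18 replicate 2). It was 5 higher without WT_D18 replicate 2 or 3, and 2 higher, psbA and psbD, with unscaled arrays.

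Outside photosystem II few plastid genes were called. None of the 6 ATP synthase genes, the 10 NDH genes, the 4 RNA polymerase genes and rbcL was called by limma, and 0 of them had an unadjusted p under 0.05. Against WT_D0, atpA, atpF, ndhC and ndhE were called higher in WT_R18, by 0.40, 0.96, 0.27 and 0.81. Their adjusted p was 0.011, 0.016, 0.024 and 0.0037, and the others of these genes were not called. rbcL, for the large subunit of Rubisco, was at 659.0, 748.9 and 765.5 units in darkness and at 952.5, 560.5 and 651.9 in red light. The NDH genes had a median of -0.07 and ran from -0.26 (ndhK) to 0.33 (ndhE). Without WT_R18 replicate 2, 1 NDH gene, ndhE, was called. petN of the cytochrome b6f complex fell by 1.35 and psaI of photosystem I fell by 0.73, and each lost its call in at least 4 of the 6 fits with 1 array left out (highest adjusted p 0.088 and 0.12). Of these fits petN kept its call without WT_D18 replicate 3 or WT_R18 replicate 1, and psaI without WT_R18 replicate 1. For the plastid ribosome, rps16 rose by 0.57, rpl33 rose by 0.53 and rps4 fell by 0.73. These 3 lost their call with unscaled arrays (adjusted p 0.25, 0.19 and 0.19).

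**Figure D3:**
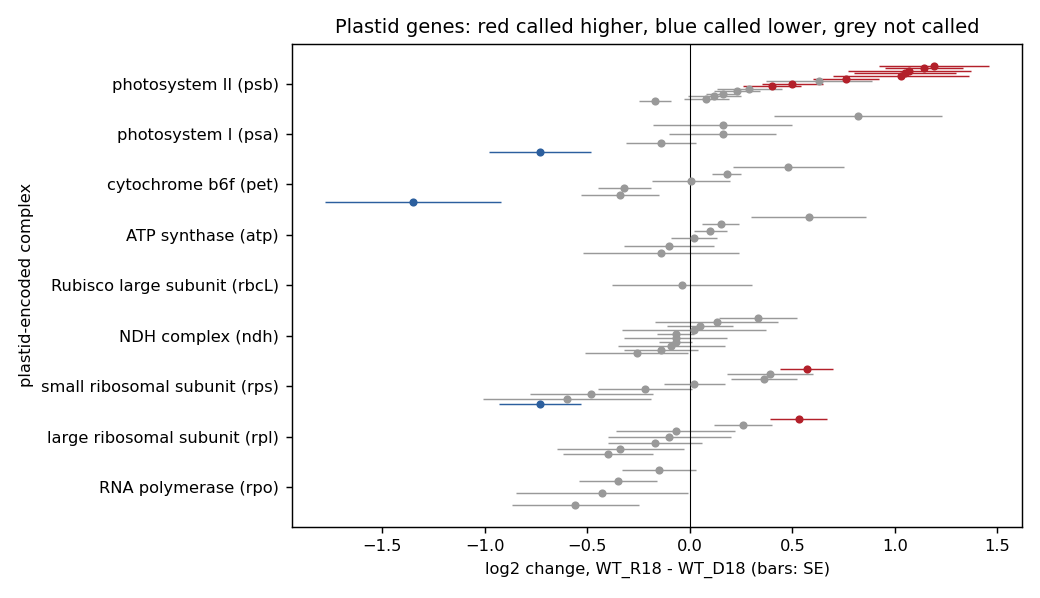
Log2 changes of plastid-encoded genes are plotted by complex, with 1 point per gene, bars for the SE and colour for the call. The psb genes hold 8 of the red points and reach 1.19 (psbD), while the atp genes lie between -0.14 and 0.58 and the ndh genes between -0.26 and 0.33 with no coloured point.

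Nuclear genes for the assembly of these complexes were looked up after their values were seen, so their counts are descriptions. Of 8 nuclear genes for NDH subunits and for CRR factors (named from mutants without NDH activity), 7 were called higher, with a median of 1.08. NdhN was at 108.2, 76.11 and 85.27 units in darkness and at 800.9, 575.3 and 836.9 in red light, 8.21-fold higher. NdhL rose from 165.0, 86.61 and 136.0 units to 660.9, 574.4 and 787.7, and NdhS by 1.11. The NDH complex is built from nuclear and plastid gene products, and the 10 measured plastid ndh genes were not called. The SE of those 10 ran from 0.08 (ndhI) to 0.35 (ndhG). CRR22 was at or below 2.795 units in all 6 arrays and was not called, and CRR28 lost its call without WT_D18 replicate 3 (adjusted p = 0.08). With unscaled arrays 5 of the 8 were called, and CRR28 and CRR41 were not (adjusted p 0.092 and 0.13).

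All 6 assembly factors of the photosystems and cytochrome b6f were higher, with a median of 1.27. CCB3, needed to attach heme in cytochrome b6, was at 29.05, 20.15 and 39.80 units in darkness and at 184.4, 155.7 and 178.8 in red light. HCF101, an iron-sulfur factor for photosystem I, rose by 1.69, and the photosystem II factors LPA2, LPA66, LPA1 and LPA19 rose by 1.32, 1.23, 0.88 and 0.38. LPA1 and LPA19 lost their calls with unscaled arrays (adjusted p 0.057 and 0.55). Among 6 plastid chaperonin and Clp protease genes, CLPP4, Cpn60beta2 and Cpn60beta4 rose by 1.44, 1.38 and 1.05. Cpn60beta3 fell by 0.67, and that call was lost with unscaled arrays (adjusted p = 0.38).

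Shade and PIF target genes were lower, all 3 that were measured. IAA29, an Aux/IAA protein, was at 220.4, 210.0 and 187.1 units in darkness and at 40.28, 46.22 and 42.17 in red light. FHL, which helps bring phytochrome A into the nucleus, fell from 180.4, 187.1 and 167.5 units to 47.74, 40.42 and 42.43. HAT2, a homeodomain-leucine zipper factor, fell from 843.0, 908.8 and 846.4 units to 262.0, 373.5 and 297.8. HYH, a bZIP factor close to HY5, was the only measured photomorphogenesis factor: it was at 9.176, 4.796 and 4.320 units in darkness and at 232.5, 193.9 and 228.8 in red light. Its log2 change of 3.41 rests on the offset, since the dark mean was below 16, and ran from 2.01 to 5.01 over the settings. The clock gene GI, at 430.4, 474.0 and 452.7 units in darkness and 377.0, 407.0 and 327.2 in red light, had a log2 change of -0.28 (adjusted p = 0.047) and kept its call, of the 6 fits with 1 array left out, without WT_R18 replicate 2 only (highest adjusted p 0.21). Against WT_D0 it had a log2 change of 0.16 in red light (adjusted p = 0.27) and of 0.44 in the longer darkness (adjusted p = 0.13).

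Of 9 auxin genes 6 were lower, with a median of -1.09. These include IAA29 and HAT2, which the shade list holds too. IAA20 was at 259.8, 190.2 and 258.2 units in darkness and at 13.63, -5.174 and 4.955 in red light, so that the size of its change, -3.54, rests on the offset and ran from -5.73 to -2.09. GH3.3, which conjugates auxin to amino acids, fell from 296.6, 521.3 and 354.2 units to 47.90, 95.21 and 84.67, and WES1, another auxin-conjugating enzyme, from 1900, 2708 and 2340 to 889.0, 1054 and 1310. GH3.17 and GH3.1, of the same enzyme family, had log2 changes of -0.11 (adjusted p = 0.46) and -0.32 (adjusted p = 0.37). Of the 7 Aux/IAA genes measured, IAA34 and IAA30 were also called lower, by 0.86 and 0.63, and lost their calls with unscaled arrays (adjusted p 0.19 and 0.37).

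Changes among gibberellin genes were small. GID1A and GID1C, both hormone receptors, were lower in WT_R18 than in WT_D18 by 0.45 and 0.43. Against WT_D0 both had a log2 change of -0.08 in red light (adjusted p 0.68 and 0.57), and of 0.37 and 0.35 in the longer darkness (adjusted p 0.21 and 0.17). SLY1, the F-box protein that marks DELLA repressors for breakdown, fell by 0.22. The third receptor, GID1B, was at 106.9, 133.6 and 141.1 units in darkness and 108.0, 94.57 and 144.0 in red light and was not called (adjusted p = 0.71). SLY1 kept its call, with 1 array left out, without WT_R18 replicate 1 or 2 only (highest adjusted p 0.21), and none of the 3 was called with unscaled arrays, where their adjusted p was 0.55 to 0.85. EXO, which brassinosteroids induce and which promotes growth, fell by 0.80 from 2954, 2629 and 2804 units to 1527, 1635 and 1628.

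Genes for wall loosening held calls in both directions. Of 11 measured members of the list of expansins and of XTH genes, which encode enzymes that cut and rejoin xyloglucan, 2 were higher and 6 lower, with a median of -0.96, and 1 and 3 were with unscaled arrays. Of the 18 expansin genes matched by name, 2 were higher and 4 lower, which is 33.3% called against 31.6% of all genes. Of the 9 XTH genes matched by name, 2 were higher and 3 lower, and 1 of each with unscaled arrays. EXPA9 was at 938.5, 709.6 and 785.0 units in darkness and at 194.3, 188.6 and 174.8 in red light, 4.36-fold lower. EXPB3 moved the other way, from 29.45, 22.36 and 23.57 units to 196.1, 209.5 and 299.8, and XTH32 from 52.04, 28.84 and 52.79 to 329.6, 352.8 and 361.3. XTH19 fell by 1.44, EXLA2 by 1.37 and EXPA4 by 1.06, while XTH16 rose by 0.80. XTH16 lost its call with unscaled arrays (adjusted p = 0.18), and XTH33, another of the lower genes, did so too (adjusted p = 0.079).

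Tubulin genes were lower or not called. Of 7 measured, 5 were lower, with a median of -0.42. TUB1 was at 1412, 923.8 and 1028 units in darkness and at 270.7, 330.1 and 212.4 in red light, 4.14-fold lower. TUB6 fell by 0.88, TUA6 by 0.54, TUB5 by 0.42 and TUB9 by 0.18. TUA1 (0.12, adjusted p = 0.49) and TUB7 (0.014, adjusted p = 1) were not called, nor was COB, which orients cellulose deposition (0.13, adjusted p = 0.39). With unscaled arrays TUB1 was the 1 tubulin called, and TUB9 kept its call, with 1 array left out, without WT_D18 replicate 3 or WT_R18 replicate 2 only (highest adjusted p 0.097). The 7 genes for cellulose synthases and related enzymes had 2 higher and 2 lower: CSLA03 rose by 1.14 and CSLC6 by 0.33, and CSLC04 and CSLD2 fell by 0.62 and 0.46. CSLA03 alone kept its call with unscaled arrays, and CSLD2 lost its call without WT_D18 replicate 2 or WT_R18 replicate 1 (highest adjusted p 0.086).

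Seed reserve and desiccation genes were lower. Beside PAP85 and OLEO3, 5 of 6 late embryogenesis and dehydrin genes, M17 among them, were lower, with a median of -1.23. LEA18 was at 1118, 946.5 and 1301 units in darkness and at 555.8, 418.5 and 285.0 in red light. LEA4-5 fell from 758.0, 623.2 and 878.8 units to 499.2, 392.3 and 229.9, and lost its call without WT_R18 replicate 3 (adjusted p = 0.06) and with unscaled arrays (adjusted p = 0.12), where the list had 3 genes called lower. M10 went from 155.9, 89.18 and 203.1 units to values below 0 in all 3 red arrays. COR47, a dehydrin, fell by 0.37 and lost its call without WT_D18 replicate 2 or WT_R18 replicate 3, so that the count was 3 without that red array, and COR15A was between -7.490 and 6.014 units in all 6 arrays. In oil breakdown ICL, isocitrate lyase of the glyoxylate cycle, was at 5975, 4684 and 6076 units in darkness and at 3581, 3317 and 2871 in red light. SDP1, the oil body lipase, and AIM1, a beta-oxidation enzyme, had log2 changes of -0.25 (adjusted p = 0.077) and -0.14 (adjusted p = 0.17). ICL lost its call with unscaled arrays (adjusted p = 0.11).

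Genes for breaking down branched-chain amino acids, a source of energy in carbon-starved plants, were lower. All 3 measured members of the dark and starvation list act on leucine. MCCA, a subunit of methylcrotonyl-CoA carboxylase, was at 3559, 3115 and 3484 units in darkness and at 1856, 1812 and 1663 in red light. MCCB, its other subunit, fell from 3007, 2908 and 2726 units to 1818, 1548 and 1595, and IVD, isovaleryl-CoA dehydrogenase, from 2948, 2896 and 2908 to 1814, 1900 and 1687. In none of the 3 did the groups overlap, and the WT_D0 values, from 2340 to 3588 over the 3 genes, were near those of WT_D18. Their adjusted p was 0.061 to 0.13 with unscaled arrays.

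Aldehyde dehydrogenases followed the same course, with 6 of 8 lower and a median of -0.50. ALDH10A8 was at 1384, 1263 and 1330 units in darkness and at 680.1, 684.1 and 674.5 in red light (log2 change -0.95, SE 0.08). ALDH6B2, which acts in valine breakdown, fell by 0.61, ALDH7B4 by 0.63, ALDH10A9 by 0.58, ALDH2C4 by 0.42 and ALDH11A3 by 0.36. ALDH3F1 (0.22, adjusted p = 0.086) and ALDH22A1 (0.05, adjusted p = 0.52) were not called. ALDH2C4 lost its call without WT_D18 replicate 2 or WT_R18 replicate 1, and none of the 6 was called with unscaled arrays, whose median for the family was -0.47.

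**Figure D4:**
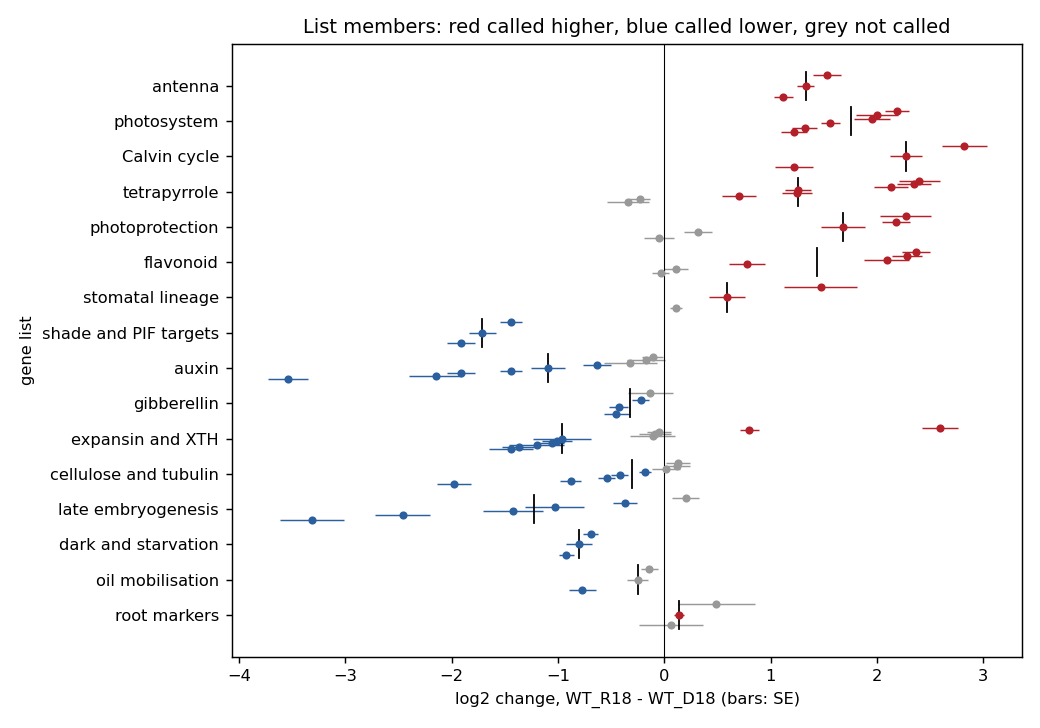
Log2 changes of list members are plotted with 1 point per gene, SE bars and a black line at each list's median, where red marks a gene called higher, blue lower and grey not called. Photosynthesis, tetrapyrrole and flavonoid members reach up to 2.82 (SBPASE), and auxin and late embryogenesis members reach down to -3.54 (IAA20).

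Autophagy genes, chosen for description after their values were seen, were lower as well. Of 8 measured, 6 were called lower, and all of these encode ATG8, the ubiquitin-like protein that coats the autophagosome. ATG8B was at 709.3, 789.5 and 786.7 units in darkness and at 347.6, 357.7 and 278.4 in red light. ATG8F fell from 3627, 3559 and 3542 units to 2657, 2590 and 2376. ATG8H fell by 0.46 and ATG8G, ATG8C and ATG8D by 0.49, 0.38 and 0.38, while ATG8E had a log2 change of -0.10 (adjusted p = 0.74) and ATG3, which attaches ATG8 to lipid, one of -0.21 (adjusted p = 0.10). The count fell to 3 without WT_D18 replicate 2 and to 3 without WT_R18 replicate 3. With unscaled arrays limma called 0 of the 8, and the median was -0.40 against -0.42.

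Other families of protein turnover and membrane traffic were also picked after their values were seen. Called were 54.2% of the ubiquitin genes and 80% of the VPS (vacuolar protein sorting) genes below, against 31.6% of all genes. Of 24 ubiquitin-conjugating enzymes and ubiquitin proteases, 11 were lower and 2 higher: UBP18 fell by 0.78, UBC32, an enzyme of the endoplasmic reticulum, by 0.61, and UBC29 by 0.58. Of 10 VPS genes, 6 were lower and 2 higher. VPS2.2, of the ESCRT-III membrane-cutting complex, was the exception in size, at 34.81, 33.79 and 26.54 units in darkness and 113.1, 103.6 and 123.7 in red light. Of 15 tetraspanin genes 5 were lower, TET4 by 1.18, and the share called, 33.3%, was near the 31.6% of all genes. With 1 array left out the count of lower genes was 8 to 10 for the ubiquitin genes. It dropped to 3 VPS genes without WT_D18 replicate 2 or WT_R18 replicate 1, and to 3 tetraspanins without WT_D18 replicate 2 or WT_R18 replicate 3, and was 4 or 5 in both families in the other fits. With unscaled arrays 2 ubiquitin genes, TET4 alone among the tetraspanins and no VPS gene were called lower.

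Of 16 genes matched to the mitochondrial genome by platform symbol, 7 were lower, with a median of -0.48. That is 43.75% called, against 31.6% of all genes. The 16 were likewise looked up after their values were seen. cox1, for a subunit of cytochrome oxidase, was at 127.6, 133.6 and 116.2 units in darkness and at 72.53, 66.77 and 37.73 in red light. nad5, a subunit of complex I, fell by 0.85 and nad6 by 0.62, both read from probe sets that may match more than 1 transcript. Of the 16, only cox1, nad4 and ccb382 exceeded 100 units in every dark array. With unscaled arrays limma called 0 of the 16, and the median was -0.37.

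Flavonoid genes were higher, 4 of 6, with a median of 1.44, which ran from 0.64 with an offset of 64 to 2.85 with an offset of 1. UGT78D2 and UGT78D1, which attach glucose and rhamnose to flavonols, were at 30.25 to 40.97 and at 9.225 to 19.24 units in darkness. UGT78D2 rose to 244.3, 211.2 and 246.4 units and UGT78D1 to 93.08, 127.8 and 101.0. CHIL, chalcone isomerase-like, was below 0 in all 3 dark arrays and at 71.45, 91.26 and 44.28 units in red light. DFR and BAN, of the anthocyanin and proanthocyanidin branches, stayed at or below 28.57 units in all 6 arrays and were not called. UF3GT, the fourth gene called, was below 0 in all 3 dark arrays and at 9.762, 10.80 and 14.20 units in red light, and its change against WT_D0 was not called (log2 change 0.26, adjusted p = 0.26). The sizes for UGT78D1, CHIL and UF3GT rest on the offset and ran from 1.15 to 3.01, from 1.04 to 6.07 and from 0.24 to 3.64.

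The UDP-glycosyltransferases, the family of UGT78D1 and UGT78D2, had 10 members higher and 5 lower of 47, a median of 0 and no common direction. The share called, 31.9%, was near the 31.6% of all genes. For the families that follow it was 38.5% (glutathione transferases), 18.2% (P450 genes) and 15% (beta-glucosidases). UGT88A1 was at 696.6, 620.2 and 698.0 units in darkness and at 1515, 1422 and 1860 in red light. UGT74D1 rose by 0.98 and UGT71C4 by 0.74, while UGT85A4 fell by 1.14 and UGT72E1 by 0.80. Of 13 glutathione transferases, 4 were higher and 1 lower, and GSTU18 rose 4.45-fold, from 114.6, 105.4 and 107.1 units to 539.4, 394.4 and 521.1. GSTL3 and GSTU16 rose by 0.72 and 0.66 and GSTU26 fell by 0.36. Of 22 cytochrome P450 genes 4 were higher, and 2 without WT_D18 replicate 3. Of 20 beta-glucosidases 3 were higher, with BGLU40 at 1.25, and 1 without WT_D18 replicate 1 or 2 or WT_R18 replicate 2. With unscaled arrays the counts were 5 higher and 1 lower for the UDP-glycosyltransferases, and 1 higher each for the glutathione transferases, P450 genes and beta-glucosidases. GSTU18, UGT88A1 and BGLU40 were among those called, whereas UGT74D1, UGT71C4, GSTL3, GSTU16, GSTU26 and UGT72E1 were not.

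Sugar transporters of the SWEET family, a family added after values were seen, had 4 of 14 higher and 1 lower. The share called was 35.7%, near the 31.6% of all genes. SWEET17, a fructose transporter of the vacuole, was at 347.8, 361.1 and 388.4 units in darkness and at 1096, 1137 and 723.2 in red light. SWEET1 rose by 1.16. SWEET11, which exports sucrose for phloem loading, was at 3588, 3272 and 4036 units in darkness and 2538, 2954 and 2819 in red light, 0.39 lower on the log2 scale. It lost that call without WT_D18 replicate 3 or WT_R18 replicate 1 (highest adjusted p 0.068) and with unscaled arrays (adjusted p = 0.64), where 3 genes of the family were called higher.

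**Figure D5:**
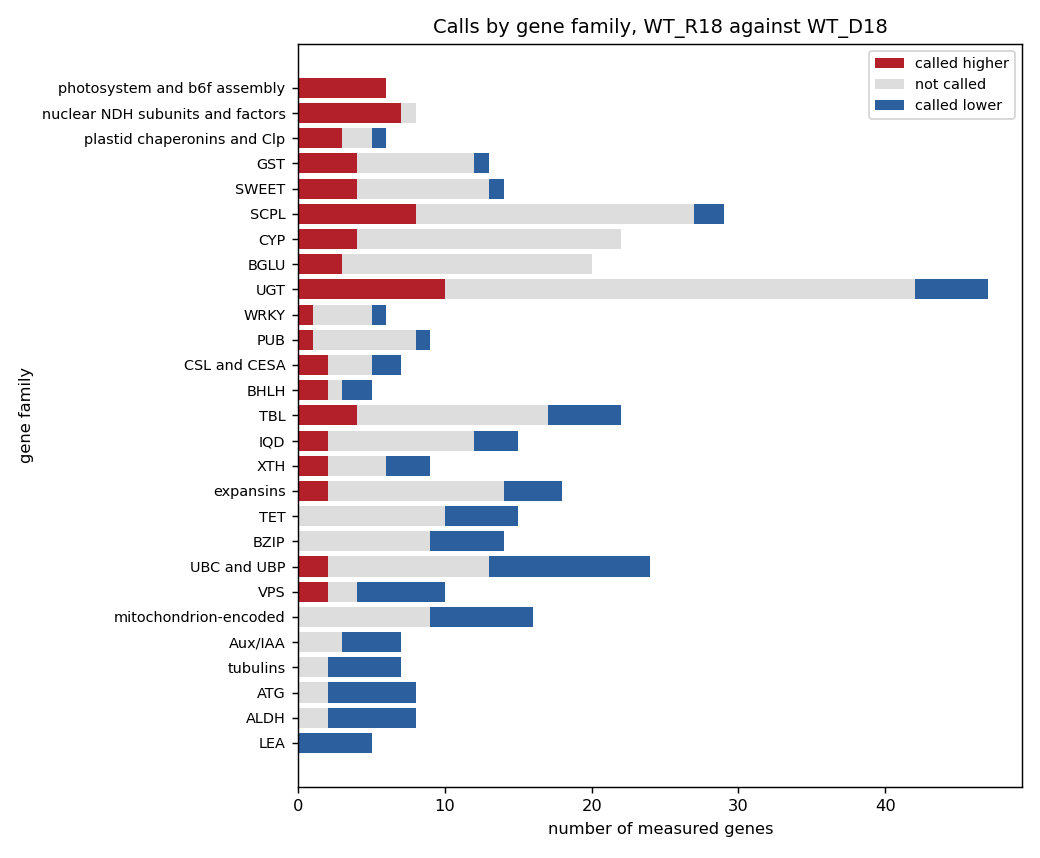
Bars count the measured genes of each family by call, higher (red), not called (grey) or lower (blue), for families with at least 5 measured genes. All 6 photosystem and b6f assembly factors are red and all 5 LEA-named genes are blue, while UGT, SCPL and TBL hold both.

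Among families of transcription factors matched by name, 5 of 14 bZIP genes were lower, and HYH, a bZIP factor outside that name match, was called higher (log2 change 3.41, a size that rests on the offset). The share called was 35.7% for bZIP, 33.3% for WRKY and 80% for bHLH genes, against 31.6% of all genes. bZIP48 was at 73.37, 78.20 and 73.95 units in darkness and at 22.07, 20.65 and 17.94 in red light. BZIP28, a membrane-bound factor of the response to unfolded proteins, fell by 0.59 from 387.3, 402.5 and 405.1 units to 248.9, 268.1 and 259.2. Of 6 WRKY genes, WRKY22 fell from 177.1, 192.8 and 168.0 units to 66.11, 74.76 and 86.99 and WRKY20 rose by 0.43. Of 5 bHLH genes, bHLH115 and bHLH34 rose by 0.73 and 0.60 and bHLH121 and bHLH104 fell by 0.66 and 0.41, and these 4 are known from the control of iron uptake. With 1 array left out, bHLH104 kept its call without WT_D18 replicate 1 or 2 only (highest adjusted p 0.25). WRKY20 lost its call without WT_D18 replicate 3 or WT_R18 replicate 3. With unscaled arrays WRKY22 and bZIP48 kept theirs and BZIP28, WRKY20 and the 4 bHLH genes did not.

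Further families held calls in both directions, and those of IQD, TBL and serine carboxypeptidase-like genes were chosen after their values were seen. The share called was 33.3% for IQD, 40.9% for TBL, 34.5% for carboxypeptidase-like and 22.2% for plant U-box genes, against 31.6% of all genes. Among 15 IQD genes, which encode calmodulin-binding proteins, iqd21 rose from 59.07, 51.16 and 51.21 units to 172.5, 189.7 and 199.9. IQD22 fell from 190.0, 186.1 and 215.9 units to 61.83, 61.27 and 56.51, and IQD26 fell by 1.60. Among 22 TBL genes, relatives of enzymes that acetylate wall polysaccharides, 4 were higher and 5 lower. TBL45 rose from 322.1, 323.8 and 285.8 units to 897.8, 1076 and 996.2 (log2 change 1.62, SE 0.07), and TBL38 and TBL39 fell by 0.98 and 0.87. Among 29 serine carboxypeptidase-like genes, 8 were higher and 2 lower, and scpl40 fell from 159.4, 145.3 and 163.7 units to 30.14, 52.54 and 39.92. Of 9 plant U-box genes PUB26 rose by 1.18 and PUB49 fell by 0.48. TBL38, TBL39 and PUB49 lost their calls with unscaled arrays, which left 1 higher and 1 lower TBL gene and 4 higher and 1 lower carboxypeptidase-like gene.

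Markers of single cell types could be checked only in part. SPCH, which starts the stomatal lineage, was between -8.642 and 7.574 units in darkness and at 34.78, 21.03 and 51.85 in red light, and FMA, which acts late in that lineage, was at 21.51, 35.80 and 30.20 and then at 52.52, 47.73 and 53.73. SPCH was called (adjusted p = 0.0033), with a size that rests on the offset and ran from 0.58 to 4.08. FMA was called (adjusted p = 0.013) but not without WT_D18 replicate 1 (adjusted p = 0.068) or with unscaled arrays (adjusted p = 0.24), and MUTE, which acts between them, was at or below 4.056 units in all 6 arrays. The root marker PYK10 was at 5879, 5930 and 6262 units in darkness and 6306, 7047 and 6574 in red light (log2 change 0.14, adjusted p = 0.049), and kept its call, with 1 array left out, without WT_D18 replicate 3 or WT_R18 replicate 1 only. The root hair genes EXPA7 and EXPA18 had adjusted p of 0.35 and 0.95. CLV3, of the shoot apex, was below 0 in all 6 arrays, and no epidermis marker of the list was measured. The share of each organ in the samples was not tested beyond these values.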

How the data were processed

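The deposited table holds linear intensities of 1-colour Affymetrix arrays, hybridised with biotin-labelled RNA made from 5 ug of total RNA, per the labels' protocols. How they were summarised or scaled is not given in the sources used here, and 10.6% to 12.1% of the values in the 6 arrays lay below 0. Arrays were quantile normalized over all 22810 probe sets, 64 controls were dropped, values below 0 were raised to 0, and log2 was taken after adding 16, so that changes of dim probe sets are understated. Intensities in the text are normalized values before the floor. A model of 7 group means was fitted to the 21 arrays with limma 3.58.1 under R 4.3.3 (lmFit, eBayes). Every p-value in the text is limma's, two-sided and, unless said otherwise, Benjamini-Hochberg adjusted over 22746 probe sets. Precision is limited by the number of arrays, and p-values measure the spread between samples that the labels call biological replicates.

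Names came from the platform annotation and, for names alone, RefSeq's gene table (TAIR10.1). Another 503 probe sets had several genes and 8730 none listed, and these stay unnamed. Of 146 genes with several probe sets, calls differed between them for 50 and were never opposite. Near-identical family members may share signal, which was not checked. The members, 30 gene lists and 32 families were chosen with earlier results of these data known, and 12 further families after their values were seen. Of 597 list entries 158 were measured, so a list speaks for its measured members only. Entries were paired by locus and symbol, but plastid genes by symbol on the plastid chromosome and mitochondrial genes by platform symbol. Named genes are, for called genes whose groups do not overlap and whose means are both at least 50, the 12 that rose most and the 12 that fell most, and up to 4 called members of each list of at least 3 or family of at least 5 measured genes, or the member of smallest p. Other genes named were chosen after their values were seen.

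Replicate numbers were not used as pairs. Deviations of same-numbered red and dark arrays correlated at 0.15, -0.03 and -0.08, and those of differently numbered arrays at -0.26 to 0.23. With 3 arrays per group this cannot show whether samples were harvested in pairs. On simulated data for this comparison with 22746 probe sets, 44.1%, 90.9% and 100% of log2 changes of 0.5, 1 and 2 were recovered, and 14 of 22546 unchanged probe sets were called. Noise was drawn independently for each probe set, so errors shared between probe sets of an array were not simulated. The planted changes numbered 68, 66 and 66, of which 30, 60 and 66 were recovered, beside the 14 false calls. All planted changes were placed only in brighter probe sets and went up and down equally often. Recovery among dim probe sets was therefore not tested, nor was normalization where many probe sets change and mostly in 1 direction. Alternatives were no scaling, median scaling, normalization of log2 values, offsets of 1 and 64, a filter on means under 50, a fit of the 6 arrays alone, the replicate number as a block, the 25S rRNA signal as a covariate, a test against 1.5-fold and leaving out each array. A planned search of promoter motifs was not run, since no sequences were used here, and no coordinates are given.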

Additional observations from a re-analysis of the deposited data

How the results depend on the processing

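With no scaling, 1997 probe sets were called (1513 higher, 484 lower) against 7828 (3213 and 4615), 75.8% of them higher against 41.0%. Red light against WT_D0 then gave 1815 (1403 higher, 412 lower), and darkness at 18 h against WT_D0 gave 0 in limma, 0 higher and 0 lower, with 414 at an unadjusted p under 0.05. Over all arrays of the fit the deposited medians ran from 36.13 in a pif3 array to 102.9 in a WT_D0 array. With no scaling these differences between arrays stay in the values and in the estimate of spread. Their part in the loss of calls was not tested. Median scaling gave 8324 calls and quantile normalization of log2 values 7829. Against a change of 1.5-fold 1558 were called, with 1094 increases and 464 decreases. Decreases of at least 2-fold numbered 596, and 1055 with an offset of 1 and 271 with an offset of 64, where 2-fold increases fell from 1214 to 808, since the offset sets the size of dim changes. For darkness alone the offset of 1 gave 6 calls, 3 of them lower.

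With 1 array left out, there were 6568 to 7328 calls, of which 2791 to 3003 were increases and 3777 to 4325 decreases. The increases of at least 2-fold numbered 1160 to 1280 and the decreases 517 to 668. With the replicate number as a block, 5646 were called in the 6 arrays alone, against 7360 without the block. Whether the numbers pair the samples is not known. Of 243 genes called and recomputed, 97 kept their call in all 16 settings and none turned direction in any. No scaling ended 130 calls, the 1.5-fold test 137 and the block 63. Dim probe sets limit the rest: 14.0% of those under 50 units were called, and 889 called probe sets had a group mean under the offset.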
